A study of Mus musculus with 6 samples.

Results

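The expression of 10 imprinted growth genes was examined in 6 RNA-seq libraries of mouse endothelial cells. The genes were chosen by name (Igf2, Igf2r, Grb10, Cdkn1c, Plagl1, Peg3, Dlk1, Mest, H19 and Meg3), with earlier results of these data known. All 10 are among the 24421 gene symbols of the count table. Blood endothelial cells (BECs) of E15.5 embryo skin came from Tie2-Cre(+); Dot1l 2f/2f embryos (cKO) and from Tie2-Cre(-); Dot1l 2f/2f embryos (Cont), so both genotypes carry the floxed Dot1l alleles, and Tie2-Cre drives the deletion in endothelial cells. RNA of 2 to 3 embryos was pooled per library, and the BECs had been depleted of F4/80, CD45 and Lyve1 positive cells. A figure legend of the study also lists these BECs as CD31 positive. The cultured cells were a mouse embryonic yolk sac BEC line (CRL-2581) and mouse embryonic dermal lymphatic endothelial cells (LECs, C57-6064L). They carried a lentivirus for the activator dCas9-VP64 with guides to the Dot1l promoter (OE-BECs and OE-LECs) or an empty lentivirus (Cont BECs and Cont LECs), and sorted cells carrying GFP were pooled from 2 to 3 flasks per library. With a single library for every condition, the difference within a pair has no replicate check. Only skin against culture, and overexpression over both lines together, could be set against a spread between libraries. The intervals given here cover counting error only, since the reads carry no molecular identifiers and several may stem from 1 molecule.

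Imprinted genes are transcribed mainly from the copy of a single parent, a state set by DNA methylation in the germline and kept at imprinting control regions. Many act on prenatal growth: the paternally expressed Igf2, Dlk1, Peg3, Mest and Plagl1 are mostly linked to growth, while the maternally expressed Igf2r, Grb10, Cdkn1c and H19 mostly restrain it. H19 with Igf2, and Meg3 with Dlk1, are pairs of neighbouring genes expressed from opposite parental copies. Many of these genes are abundant in fetal mesoderm, including muscle, connective tissue and endothelium, and fall after birth. Counts per gene do not separate the parental copies, so the level of each gene is reported here and not its imprint.

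The libraries held 8863349 to 31032461 counted reads, and the skin libraries were the shallowest. The floor was set at 3 reads, or 0.338 counts per 1000000 reads (CPM) for the shallowest library and 0.0967 CPM for the deepest. For Dot1l there were 762 Cont reads and 944 cKO reads, a log2 ratio of -0.07 (interval -0.21 to 0.07). A count of the whole gene does not show the floxed exons by themselves, so this library is called by its label. The study reports RT-qPCR of Dot1l as its own check of the knockout. Dot1l was 2.78-fold higher in OE-BECs and 2.30-fold higher in OE-LECs than in their controls. All of 12 blood endothelial markers had reads in all 6 libraries. Prox1, the lymphatic master factor, had 1304 and 883 reads in the skin BEC libraries but 0 in all 4 cultured libraries, LECs included, and Lyve1 had 9105 and 19959 reads in the skin BECs although Lyve1-positive cells had been removed.

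In both skin libraries all 10 genes had reads far over the floor, and their summed share of the reads was 1.42% (Cont) and 1.24% (library labelled cKO). In the 4 cultured libraries the same genes took 0.0541% to 0.131%, and 3 of them (H19, Dlk1 and Meg3) were at or under the floor in every cultured library. H19 was the gene with rank 2 by CPM in both skin libraries. On a scale per length (CPM per kilobase of exon, RPKM), the order of the levels in Cont skin BECs was H19 (2768), Igf2 (434), Mest (300.3), Grb10 (138), Igf2r (111), Plagl1 (82.7), Cdkn1c (63.7), Peg3 (30.5), Dlk1 (10.97) and Meg3 (8.60). In the library labelled cKO the order differed in the middle, where Cdkn1c (73.2 RPKM) and Peg3 (51.6) stood above Plagl1 (34.2). The ranges of the 2 skin libraries overlapped for Igf2 and Mest, for Grb10 and Igf2r, for Igf2r and Plagl1, and for Plagl1 and Cdkn1c, so these neighbours in the order were not separated. Exons of all annotated isoforms enter the length, which lowers the RPKM of genes with many isoforms such as Meg3.

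**Figure D1:**
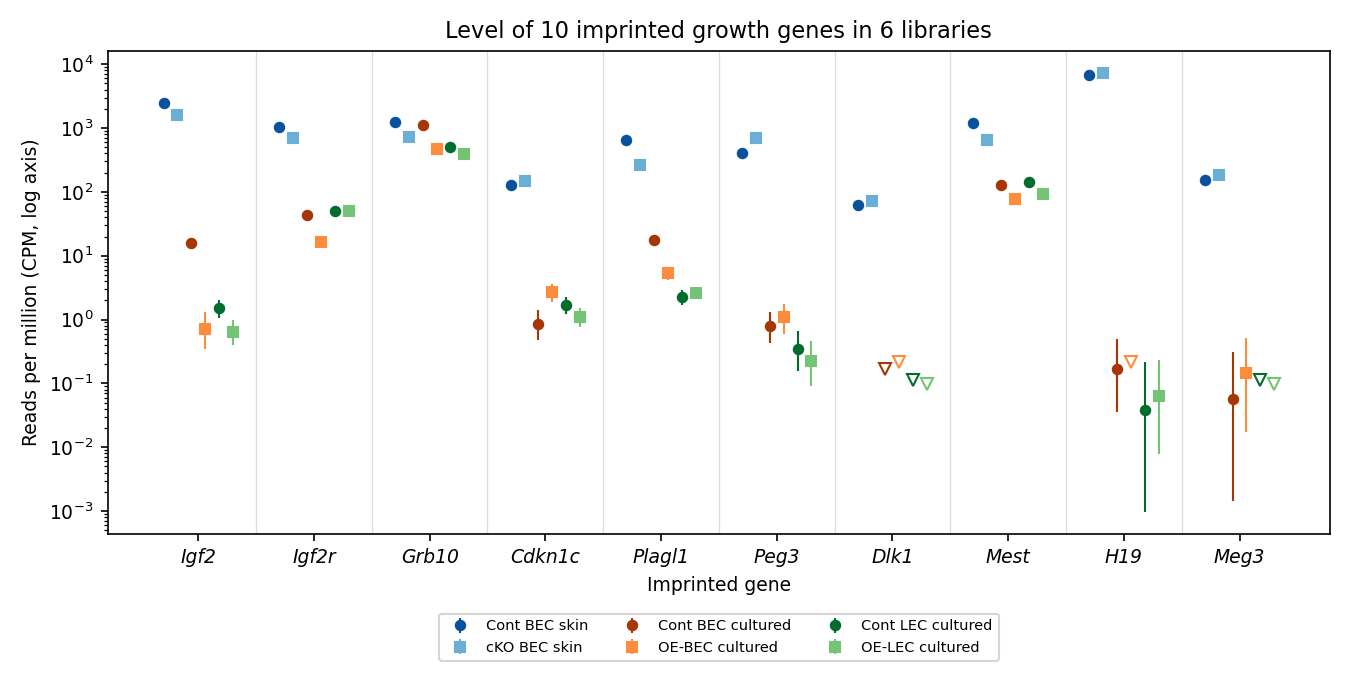
Level of each gene in CPM (log axis) in the 6 libraries, with exact Poisson 95% intervals (counting error only). Open triangles stand at the floor of 3 reads for a library without a read, and both skin libraries lie above all cultured libraries for every gene except Grb10.

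Igf2, on chromosome 7 from 142650766 to 142666816 of mm10 (minus strand), encodes a fetal growth factor that signals through the IGF1 and insulin receptors. Its level was 2482 CPM in Cont skin BECs and 1618 CPM in the library labelled cKO. In the cultured BECs it was 15.9 CPM with empty virus (Cont) and 0.718 with overexpression (OE), and in the LECs 1.49 (Cont) and 0.644 (OE). The skin libraries stood far above the cultured ones, and among the cultured libraries that of Cont BECs was the highest, with 282 reads against 10 to 39. Igf2r, on chromosome 17 from 12682406 to 12769664 (minus strand), encodes the receptor that carries IGF2 to the lysosome and so lowers its amount outside the cell. Igf2r had 1030 CPM in Cont skin BECs, 700.2 in the library labelled cKO, 42.7 (Cont) and 16.7 (OE) in the BEC line, and 50.5 (Cont) and 50.5 (OE) in LECs. Receptor and ligand were thus both low in culture, but Igf2r kept 232 to 1566 reads there. The antisense gene Igf2os, which overlaps Igf2, had 135 and 150 reads in skin and 0 to 8 in culture, and Airn, which overlaps Igf2r on the other strand, had 357 and 379 against 4 to 31. Whether the counting used strand is not clear from the sources used here, so reads of such antisense pairs may be assigned to either gene.

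Grb10, on chromosome 11 from 11930508 to 12038683 (minus strand), encodes an adaptor that binds the activated insulin and IGF1 receptors and dampens their signal. Grb10 had 1256 CPM in Cont skin BECs, 719.9 in the library labelled cKO, 1103 (Cont) and 473 (OE) in the BEC line, and 506 (Cont) and 392 (OE) in LECs. It was the only one of the 10 genes whose skin and cultured libraries overlapped. Cdkn1c, on chromosome 7 from 143458339 to 143461050 (minus strand), encodes the cyclin-dependent kinase inhibitor p57. Its level was 130.0 CPM in Cont skin BECs and 149 in the library labelled cKO, and in culture it was 0.848 (Cont) and 2.66 (OE) in BECs and 1.68 (Cont) and 1.10 (OE) in LECs. In the cultured libraries these are only 15 to 44 reads.

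Plagl1, on chromosome 10 from 13060504 to 13131694 (plus strand), encodes a zinc finger factor known to regulate other imprinted genes. Plagl1 had 647 CPM in Cont skin BECs, 268 in the library labelled cKO, 17.5 (Cont) and 5.31 (OE) in the BEC line, and 2.26 (Cont) and 2.64 (OE) in LECs. As for Igf2, Cont BECs were the highest of the cultured libraries. Peg3, on chromosome 7 from 6703892 to 6730431 (minus strand), encodes a zinc finger protein that binds DNA. Peg3 had 407 CPM in Cont skin BECs and 687 in the library labelled cKO, against 0.792 (Cont) and 1.08 (OE) in the BEC line and 0.345 (Cont) and 0.226 (OE) in LECs. The cultured values rest on 7 to 15 reads.

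Dlk1, on chromosome 12 from 109452823 to 109463336 (plus strand), encodes a transmembrane protein related to the Notch ligands that keeps preadipocytes undifferentiated. Dlk1 had 62.1 CPM (550 reads) in Cont skin BECs and 73.0 CPM (809 reads) in the library labelled cKO, and 0 reads in each of the 4 cultured libraries, where the floor of 3 reads is 0.215 CPM in the shallowest. Mest, on chromosome 6 from 30723547 to 30748465 (plus strand), encodes a protein of the alpha/beta hydrolase fold. Mest had 1185 CPM in Cont skin BECs, 654 in the library labelled cKO, 128 (Cont) and 77.1 (OE) in the BEC line, and 142 (Cont) and 93.7 (OE) in LECs. After Grb10 it was the gene with the most reads in culture, with 1074 to 3709.

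H19, on chromosome 7 from 142575529 to 142578143 (minus strand), is a noncoding RNA that shares enhancers with Igf2. H19 had 60360 reads (6810 CPM) in Cont skin BECs and 81191 reads (7325 CPM) in the library labelled cKO, against 3 (Cont) and 0 (OE) reads in the BEC line and 1 (Cont) and 2 (OE) in LECs. Meg3, on chromosome 12 from 109541001 to 109571726 (plus strand), is the noncoding RNA of the Dlk1 domain. Meg3 had 1379 reads (156 CPM) and 2064 reads (186 CPM) in the skin libraries, against 1 (Cont) and 2 (OE) in the BEC line and 0 in both LEC libraries. Both noncoding RNAs were thus plain in skin and at the floor in culture. H19 is also the precursor of miR-675, and Mest holds miR-335 within its span. Their mature forms, shown because they are the small RNAs made from members of the group, are given from RefSeq (GRCm38.p6) with the seed, bases 2 to 8, in capitals.
miR-675-5p: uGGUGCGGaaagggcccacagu
miR-675-3p: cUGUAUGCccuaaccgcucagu
miR-335-5p: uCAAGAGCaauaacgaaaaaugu
miR-335-3p: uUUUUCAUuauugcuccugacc
The seeds differ among all 4. These libraries do not measure mature miRNAs. The entry Mir675, within H19 on the same strand, had 0 reads in all 6 libraries although H19 was abundant in skin. How reads lying within both genes were assigned was not tested, so this 0 does not bear on the amount of miR-675. The entry Mir335 had 96 and 189 reads in the skin libraries, 12 (Cont) and 3 (OE) in the BEC line, and 3 (Cont) and 1 (OE) in LECs. These reads cover the locus of the precursor.

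To compare embryo tissue with the cultured lines, counts were normalized over all 6 libraries, and a gene was called where the lowest library of 1 side was more than 3 times the highest of the other and at least 5 normalized counts. By this rule 9 of the 10 genes were higher in skin, all but Grb10, and 0 were lower. Over all 17411 genes that could pass, 17.6% were called higher in skin and 3.59% lower. Dlk1 was at least 252-fold higher in the lower skin library than the floor of the cultured libraries. For H19 the lowest skin library was 36602-fold above the highest cultured one (interval 12524 to 177492, on 3 reads), and for Meg3 it was 948-fold (262 to 7832, on 2 reads). The gap was 330.3-fold for Peg3 (199.99 to 591), 89.5-fold for Igf2 (79.6 to 101) and 42.8-fold for Cdkn1c (30.9 to 61.1). It was smaller for Plagl1 (13.5-fold, 11.99 to 15.2), Igf2r (13.2-fold, 12.5 to 14.0) and Mest (4.42-fold, 4.25 to 4.603). The median log2 difference of the 10 genes, with 1 added to each normalized count, was 8.07, beside 0.38 over all genes that could pass. In a quasi-likelihood fit of edgeR over all genes, 2 skin against 4 cultured libraries, the same 9 genes had an adjusted p-value under 0.05 and Grb10 did not (adjusted p = 0.452). In that fit 27.6% of 15015 genes were higher in skin at this threshold, and its p-values are too small, because the 4 cultured libraries come from 2 lines. The fit also takes the 2 skin genotypes as replicates and pools overexpression with empty virus. All cultured cells carried virus and were sorted for GFP, so cell source, virus and culture cannot be told apart.

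**Figure D2:**
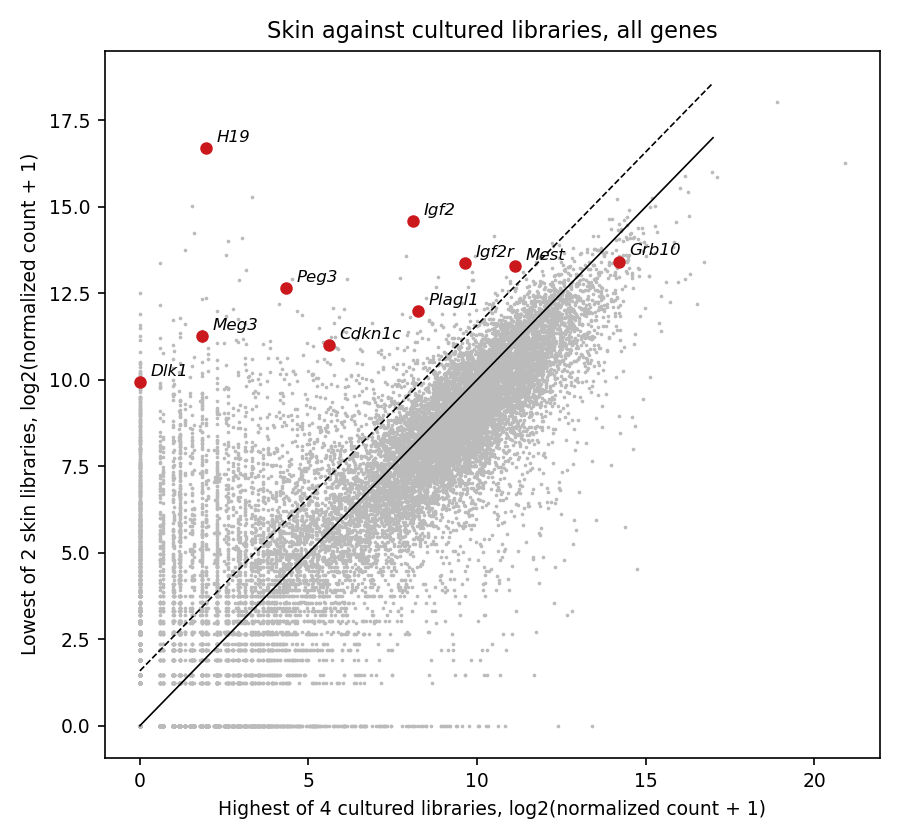
Each grey point is a gene, with the highest of the 4 cultured libraries on the x axis and the lowest of the 2 skin libraries on the y axis, both as log2(normalized count + 1), and the 10 imprinted genes in red. The solid line marks equal values and the dashed line above it a skin level 3-fold over culture. Of the red points, Grb10 alone lies below the dashed line.

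Markers of other cell types differed between skin and culture as well. The counts of called markers below stand beside 17.6% of all genes called higher in skin and 3.59% lower. In bulk RNA, more cells of a type and more RNA per cell cannot be told apart. The summed level of 10 fibroblast markers was 2883 and 2125 CPM in the skin libraries and 2.83 to 20.5 CPM in culture, and 9 of the 10 were called higher in skin. All of 8 pericyte and smooth muscle markers were called too (719 to 848 CPM in skin, 5.48 to 6.24 in culture), and 7 of 8 macrophage markers (3805 to 5904 against 34.3 to 94.5 CPM), which include Mrc1 with 22493 and 43350 reads in skin. Of 9 keratinocyte markers 7 were called (210.0 to 367 against 4.59 to 8.89 CPM). The skeletal muscle markers summed to 120.3 to 132 CPM in skin and 19.9 to 37.6 in culture, with 6 of 12 called higher and 1 lower, and the myogenic factor Myod1 was at 0 reads in every library. Adipocyte markers (4 of 6 called, 618 to 964 against 14.6 to 35.6 CPM), chondrocyte markers (3 of 4, 13.8 to 14.2 against 0.0565 to 0.161) and Schwann cell markers (4 of 4, 33.1 to 43.9 against 1.30 to 2.37) showed the same direction. Of 8 lymphatic endothelial markers 4 were called (2795 to 3251 against 762 to 2114 CPM). Of 12 blood endothelial markers 0 were called, with 4304 to 6819 CPM in skin and 5031 to 8217 in culture. So few genes can hardly set this count apart from the share over all genes. The part of these cells in the level of the imprinted genes was not tested.

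**Figure D3:**
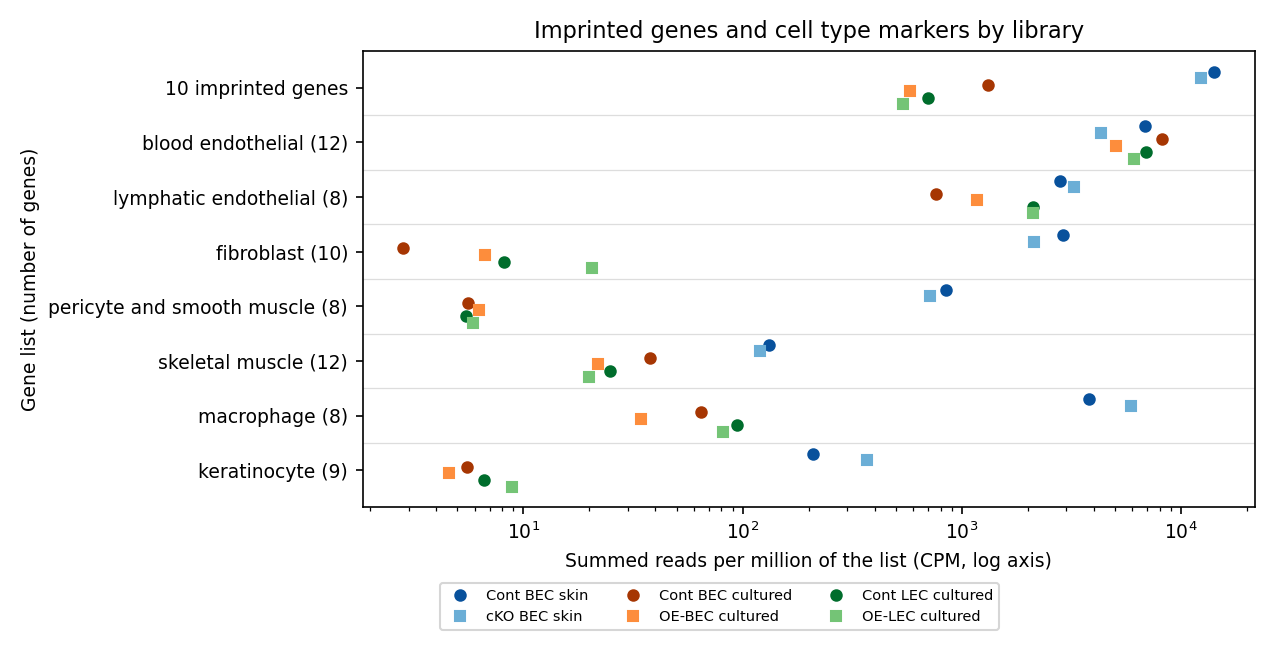
Summed CPM (log axis) of the 10 imprinted genes and of each list of cell type markers, with 1 point per library. The imprinted genes and the lymphatic endothelial, fibroblast, pericyte, skeletal muscle, macrophage and keratinocyte lists separate skin from culture. The blood endothelial list does not.

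The promoters of the group differ in their content of CG dinucleotides, the sites of DNA methylation. RefSeq windows of 250 bases before to 50 bases after a start were present for 8 of the 10 genes, 15 windows in all. Those of Igf2r, Plagl1, Peg3 and Dlk1 are shown for the 250 bases before the start (GRCm38.p6), since these are the 4 genes with 1 window. Capitals mark TGCCGC or its reverse complement, the hexamer that ZFP57, a factor that keeps imprints, binds when methylated.
Igf2r (chr17:12769707-12769956, minus strand): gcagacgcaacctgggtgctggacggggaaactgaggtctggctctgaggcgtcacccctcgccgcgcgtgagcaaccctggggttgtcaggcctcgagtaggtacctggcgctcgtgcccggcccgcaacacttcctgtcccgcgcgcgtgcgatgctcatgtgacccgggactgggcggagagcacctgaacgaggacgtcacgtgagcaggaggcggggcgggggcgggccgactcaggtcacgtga
Plagl1 (chr10:13090582-13090831, plus strand): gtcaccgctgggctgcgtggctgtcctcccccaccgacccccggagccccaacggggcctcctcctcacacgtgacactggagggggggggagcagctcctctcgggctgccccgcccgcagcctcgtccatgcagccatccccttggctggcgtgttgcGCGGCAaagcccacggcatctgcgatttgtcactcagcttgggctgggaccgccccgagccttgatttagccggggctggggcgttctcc
Peg3 (chr7:6730420-6730669, minus strand): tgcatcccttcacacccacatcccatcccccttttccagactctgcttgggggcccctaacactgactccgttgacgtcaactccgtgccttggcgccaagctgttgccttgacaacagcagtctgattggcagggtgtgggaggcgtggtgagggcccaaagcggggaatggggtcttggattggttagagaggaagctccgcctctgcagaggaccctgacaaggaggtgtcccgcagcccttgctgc
Dlk1 (chr12:109452573-109452822, plus strand): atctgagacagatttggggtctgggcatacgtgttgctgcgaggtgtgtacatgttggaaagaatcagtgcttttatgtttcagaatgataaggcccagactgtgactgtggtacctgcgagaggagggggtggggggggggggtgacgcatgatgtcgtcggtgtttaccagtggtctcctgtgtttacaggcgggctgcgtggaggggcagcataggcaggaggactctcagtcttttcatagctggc
The whole windows of Igf2r, Plagl1, Peg3 and Dlk1 hold 34, 26, 13 and 9 CG dinucleotides, beside a median of 7 over all 32851 windows. The windows of Grb10, the gene with no gap between skin and culture, hold 45 and 9. Those of Igf2 hold 2, 14, 24 and 7, those of Mest 8, 17 and 17, and those of Meg3 13 and 1. Whether these counts go with the level in culture was not tested. The hexamer was found on either strand in 6 of the 15 windows (2 of Mest that nearly coincide, and 1 each of Igf2, Plagl1, Grb10 and Meg3), beside 11.6% of all windows. A match of letters does not show binding, and methylation was not measured here.

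In the library labelled cKO, 0 of the 10 genes passed the rule of the study's methods (more than 3-fold between the normalized counts, the higher being 5 or above). Of all 15993 genes that could pass, 5.17% were higher and 2.41% lower by it. The difference nearest to the rule was that of Plagl1, 2.51-fold lower (log2 ratio -1.33, interval -1.39 to -1.26). Mest (-0.91), Grb10 (-0.86), Igf2 (-0.67) and Igf2r (-0.61) were also lower, each with an interval under 0. Peg3 was higher, with a log2 ratio of 0.70 (0.64 to 0.76). The other 4 genes differed little: Meg3 0.20, Dlk1 0.18, Cdkn1c 0.14 and H19 0.05, all with intervals above 0 at this depth. The median over the 10 genes, with 1 added to each count, was -0.28, beside 0.0046 over all genes tested. Other lists moved with the same pair. Of the 12 blood endothelial markers 11 were lower (median log2 ratio -0.66), as were 8 of 10 fibroblast markers (-0.48) and 5 of 6 adipocyte markers (-1.39), while 7 of 8 macrophage markers (0.74) and 7 of 9 keratinocyte markers (1.13) were higher. Their part in the differences of the imprinted genes was not tested. When the libraries were scaled to the blood endothelial markers instead, a choice made after the data were seen, Igf2 (-0.01), Igf2r (0.05), Grb10 (-0.20) and Mest (-0.25) lay near 0, Plagl1 was at -0.67, and H19 (0.71), Cdkn1c (0.80), Dlk1 (0.84), Meg3 (0.86) and Peg3 (1.36) were higher. Under that scaling too 0 of the 10 passed the rule, and the direction of Igf2r turned.

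In OE-BECs, 3 of the 10 genes passed the rule, which for overexpression has a minimum of 3 normalized counts. Igf2 and Plagl1 were lower and Cdkn1c was higher, while 5.27% of the 14792 genes that could pass were lower and 8.02% higher. Igf2 had 282 reads with empty virus and 10 with overexpression, 21.6-fold lower in normalized counts (log2 ratio -4.43, interval -5.51 to -3.53). Plagl1 had 310 and 74 reads and was 3.21-fold lower (-1.68, interval -2.07 to -1.31), and Cdkn1c had 15 and 37 reads and was 3.22-fold higher (1.69, interval 0.79 to 2.66). Both of these last are near the rule, and their intervals reach to either side of it. Short of the rule, Igf2r (-1.32), Grb10 (-1.18) and Mest (-0.70) were lower with intervals under 0, and Peg3, with 14 and 15 reads, had a log2 ratio of 0.48 with an interval of -0.67 to 1.64. H19, Dlk1 and Meg3 were at or under the floor in both libraries and could not be compared. The median over the other 7 was -1.18, beside -0.0041 over all genes tested. Of the blood endothelial markers 11 of 12 were lower in OE-BECs too, with a median of -0.41. Of the 5 fibroblast markers over the floor 4 were higher, 3 of them by the rule, at low levels (2.83 and 6.67 CPM summed over all 10). The share of ribosomal Rn45s was 5.91% with empty virus and 10.9% with overexpression. The part of these in the differences was not tested. Scaled to the blood endothelial markers, Igf2 (log2 ratio -4.02) and Cdkn1c (2.10) stayed past the rule and Plagl1 (-1.27) did not. Meg3 then passed on 1 and 2 reads, which is under the floor.

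In OE-LECs 0 of the 10 genes passed the same rule, while 2.77% of the 13883 genes that could pass were higher and 2.09% lower. The largest difference was that of Igf2, with 39 (Cont) and 20 (OE) reads, a log2 ratio of -1.19 (interval -2.05 to -0.38). Mest (-0.58, interval -0.65 to -0.51) and Grb10 (-0.35, interval -0.38 to -0.31) were also lower. Igf2r, at 1318 and 1566 reads, had a log2 ratio of 0.02 (interval -0.09 to 0.12). For Cdkn1c (-0.60), Peg3 (-0.59) and Plagl1 (0.24) the intervals included 0, and H19, Dlk1 and Meg3 were again at or under the floor. The median over the 7 genes was -0.53, beside 0.0074 over all genes tested, and the blood endothelial markers had a median of -0.27 with 10 of 12 lower. When both lines were fitted together, a choice made after the data were seen (edgeR, 4 cultured libraries with the line as block, 1 residual degree of freedom), 0 of the 7 genes tested had an adjusted p under 0.05, beside 0.228% of 12712 genes higher and 0.511% lower. At an unadjusted p under 0.05 in this fit there were 3 of the 7, beside 1396 of the 12712 genes. The 3 were Igf2 (log2 ratio -2.81, adjusted p = 0.148), Mest (-0.64, adjusted p = 0.11) and Grb10 (-0.76, adjusted p = 0.195), each lower in both lines. Whether the lines differ in their response was not tested.

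The 2 control lines also differed from each other. Cont LECs had less Igf2 than Cont BECs, with a log2 ratio of -3.52 (interval -4.04 to -3.03), less Plagl1 (-3.06, -3.49 to -2.65) and less Grb10 (-1.23, -1.26 to -1.20). Cdkn1c was higher in Cont LECs (0.89, 0.01 to 1.84, on 15 and 44 reads), and Peg3, on 14 and 9 reads, was at -1.30 (-2.69 to 0.01). Mest did not differ beyond counting error (0.04, -0.03 to 0.12), and Igf2r was close (0.14, 0.01 to 0.27). In these genes cell type, source and line cannot be told apart.

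**Figure D4:**
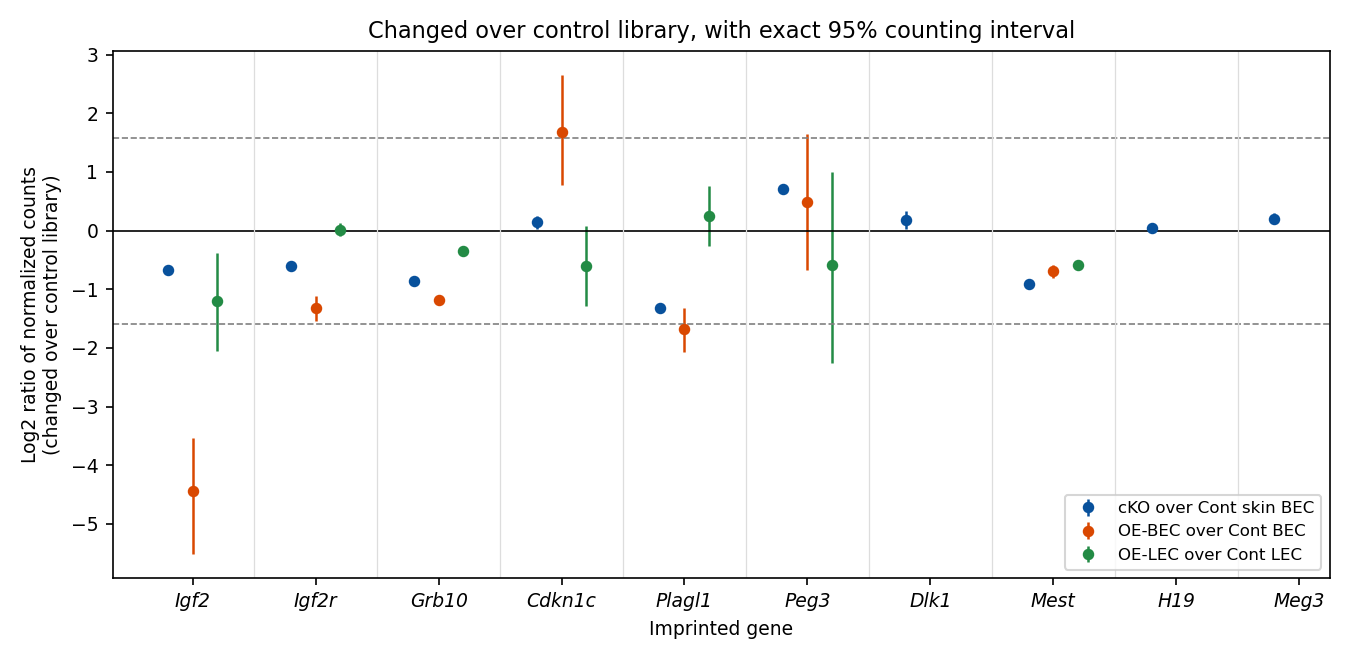
Log2 ratio of normalized counts of the changed over the control library for each imprinted gene in the 3 pairs, with exact 95% intervals of the reads (counting error only). Igf2 in OE-BECs lies farthest from 0, at -4.43, and genes at or under the floor in both libraries of a pair have no point.

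Other imprinted genes showed the same contrast of skin and culture in part. Of 23 further paternally expressed genes 10 were called higher in skin and 0 lower, beside 17.6% and 3.59% of all genes. They include Zdbf2 (447-fold, interval 123 to 3712, on 2 cultured reads), the amino acid transporter Slc38a4 (251-fold, interval 69.1 to 2085, on 2 cultured reads), Ndn (at least 135-fold) and Rtl1 (79.7-fold, interval 13.8 to 3202, on 1 cultured read). Of 22 further maternally expressed genes 8 were called higher and 1 lower. Among the former were Rian (548-fold, interval 187 to 2663, on 3 cultured reads), Tfpi2 (224-fold, interval 38.8 to 8981, on 1 cultured read), Ppp1r9a (180.2-fold, interval 103 to 350) and Zim1 (at least 77.0-fold). The latter was the potassium channel gene Kcnq1, 7.12-fold higher in the lowest cultured library than in the highest skin library (interval 5.58 to 9.19). Seen by domain, a grouping chosen after the values were seen, some neighbours of Dlk1 and Meg3 had the same direction: Rian had 1197 and 2090 reads in skin and 0 to 3 in culture, and Mirg had 40 in both skin libraries and 0 or 1. Dio3, in the same domain, had 0 reads in skin and 0 or 1 in culture. Of the neighbours of Peg3, Zim1 had 168 and 290 reads and Usp29 had 26 and 53 in skin, and both had 0 in all cultured libraries. In the domain of Cdkn1c the directions were mixed, with Kcnq1ot1 12.4-fold higher in skin (interval 11.5 to 13.4) and Kcnq1 lower, and these overlap each other on opposite strands. Airn was 17.2-fold higher in skin (interval 11.9 to 25.7). In the library labelled cKO 0 genes of both lists passed the rule, of 20 and 18 that could pass, beside 5.17% (higher) and 2.41% (lower) of all genes. In OE-LECs it was 0 of 12 and 11, beside 2.77% and 2.09%. In OE-BECs, where 13 and 12 could pass and 8.02% of all genes were higher and 5.27% lower, 1 paternally expressed gene was higher and 2 were lower, among them Peg13 (3108 and 753 reads, 3.17-fold lower, log2 ratio -1.66, interval -1.78 to -1.55), and 1 maternally expressed gene was higher and 2 were lower. Of 10 genes of imprint maintenance, such as the DNA methyltransferases, all 10 could pass between skin and culture and 8 in each pair. In the 4 comparisons 0 were called, beside the shares of all genes given above, which so few genes can hardly be set apart from. Between skin and culture 9 of the 10 were higher in skin and 1 was lower, short of the rule.

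Of 18 genes of the IGF and insulin pathway, 10 were called higher in skin and 0 lower, beside 17.6% and 3.59% of all genes. The growth factor Igf1 was 65.4-fold higher (interval 51.3 to 84.7), the adaptor Irs2 65.1-fold (24.7 to 243), Igf2bp3, an RNA-binding protein that binds Igf2 transcripts, 52.5-fold (38.8 to 72.8), and Pappa, a protease that cuts IGF-binding proteins, at least 47.2-fold. The receptors were closer to equal: Igf1r did not overlap but had a gap of 2.34-fold (interval 2.18 to 2.52), and Insr had 1.004-fold (interval 0.935 to 1.08), with 119 to 129 CPM in skin and 54.0 to 105 CPM in culture. The summed level of the list did not separate the sides, with 2102 to 2472 CPM in skin and 2370 to 6496 CPM in culture. Igfbp3 alone reached 5490 CPM in culture. Without reaching the gap of 3-fold, the abundant IGF-binding proteins Igfbp3 (2.65-fold) and Igfbp4 (1.83-fold) and the RNA-binding Igf2bp2 (2.73-fold) were higher in every cultured library than in skin. In OE-BECs 5 of the 13 genes that could pass were lower and 1 was higher, beside 5.27% and 8.02% of all genes. Igfbp3 had 97087 (Cont) and 14062 (OE) reads (5.29-fold lower, log2 ratio -2.40, interval -2.43 to -2.38). Igfbp7 had 266 and 37 reads and was 5.51-fold lower (-2.46, interval -3.0004 to -1.96). In OE-LECs 1 of 12 that could pass was lower (2.09% of all genes), and in the library labelled cKO 0 of 17 passed.

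Genes with the most similar pattern over the 6 libraries were sought by Pearson's r of log2(CPM + 1) among 9697 genes with a mean of at least 10 CPM. This is a description, since the 2 skin libraries set it for any gene that is high in skin and near 0 in culture. For Igf2 the nearest were Kdm7a (r = 0.999), Prkdc (0.998) and Igfbp5 (0.998), and 72 genes had an r of at least 0.99. For H19 they were Atp2b4, Rgs7bp and Slc6a4 and 420 genes passed 0.99, for Dlk1 they were Mylip, Krt5 and Ptn with 415 genes, and for Meg3 they were Csf2rb2, Fcrls and Fcgr1 with 414 genes.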

How the data were processed

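RNA was sequenced from 6 libraries, 1 per condition. The authors made stranded libraries, trimmed the reads with skewer, aligned them with STAR to mm10 and counted reads per gene symbol with VERSE, and they deposited raw counts, which are not normalized. The 10 genes and all gene lists were chosen with earlier results of these data known. Counts were normalized here by the median of ratios of DESeq2 (1.42.0, R 4.3.3), over each pair or, for skin against culture, over all 6 libraries. In a pair, a call needed a ratio over 3 and a higher count, once normalized, of 5 or above (cKO) or 3 or above (overexpression). Between skin and culture the nearest libraries of both sides had to differ more than 3-fold. Intervals are exact Clopper-Pearson or Poisson 95% intervals of the reads and cover counting error only. Levels per length use the union of exons of each gene in GENCODE, matched by symbol for 23376 of 24421 genes. edgeR (4.0.16) served as an alternative test of skin against culture, and of overexpression over both lines with the line as block. Scripts were tested on simulated data. All 10 genes are given in every library. Of other lists, up to 4 genes per list and comparison are named, by the size of the ratio, among called genes that reach a normalized count of 100 in some library, besides those said to be chosen otherwise. Other scalings, minimums, folds and left-out libraries were tried as alternatives.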

Additional observations from a re-analysis of the deposited data

How the results depend on the processing

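Without replicates, what limits these results is that a difference of a single pair cannot be told from one between any 2 libraries, and that in culture Cdkn1c and Peg3 rest on 7 to 44 reads. With a fold over 2 in place of 3, 1 of the 10 genes passed in the library labelled cKO (Plagl1, lower), 5 in OE-BECs (Igf2r and Grb10 lower in addition) and 1 in OE-LECs (Igf2, lower). With no minimum, 4 passed in OE-BECs, where H19 was added on 3 and 0 reads. Between skin and culture 9 genes were called with TMM factors, total counts, total counts without Rn45s, both other minimums and by edgeR. The count was also 9 without each library in turn (9 to 9). With a gap over 10-fold it was 8, all but Mest. Dropping the minimum cannot remove a call, and leaving out a library could do so only through changed size factors. These settings, which are among the alternatives counted next, were thus no check of the 9. Of the alternatives to these 4 counts 42 stayed within 1.5 times and 4 did not, and of those to single ratios 93 stayed inside the counting interval, 27 moved outside it and 0 of the called ones changed sign. The counts over all genes depend more on the rule. For the library labelled cKO they were 827 higher and 386 lower, but 372 and 153 with a minimum of 20, 490 and 209 with an exact binomial test of the reads added, 1657 and 837 with a fold over 2 and 1833 and 1160 with no minimum. For OE-BECs 1186 and 779 became 222 and 261, 368 and 375, 1692 and 1303, and 2086 and 1531 under the same settings, and for OE-LECs 385 and 290 became 109 and 51, 143 and 76, 692 and 591, and 1437 and 849, and 246 and 168 with size factors of all 6 libraries. Scaling to the blood endothelial markers, chosen after the data were seen, turned the split to 2074 higher and 203 lower, 1893 and 544, and 654 and 199. Between skin and culture 3057 and 625 became 6554 and 4208 with any gap, 1972 and 165 with a gap over 10, and 4151 and 3370 by edgeR. Size factors of all 6 libraries gave 1063 higher and 556 lower for the library labelled cKO. Such factors also change how many reads the fixed minimum stands for. The cause of these shifts was not tested. With the line as replicate block over both cultured lines (edgeR, added after the data were seen), 0 of the 7 genes tested passed. By the fold rule it was 3 of the 10 for OE-BECs and 0 for OE-LECs. Over all genes tested in this fit 29 were higher and 65 lower. The skin pair has 1 library per genotype and could not be blocked.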

Other observations

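Of 6 cyclin-dependent kinase inhibitors other than Cdkn1c, 3 were called higher in culture and 0 in skin, beside 3.59% and 17.6% of all genes. Of the other 3, Cdkn1b was higher in skin without overlap (1.16-fold), Cdkn2d was higher in culture without overlap (1.48-fold) and Cdkn2c overlapped. Cdkn2a, which encodes p16 and p19Arf, had 0 to 2 reads in the skin libraries and 322 to 980 in culture, an 89.1-fold gap (interval 24.5 to 738). Cdkn2b, which encodes p15, had 2 to 3 reads in skin and 250 to 1203 in culture (45.8-fold, interval 15.495 to 224), and Cdkn1a, which encodes p21, had 142 to 192 and 1850 to 14780 (7.99-fold, interval 6.89 to 9.31). For the library labelled cKO only 4 of the 6 had enough reads to pass the rule, and 0 did, beside 5.17% (higher) and 2.41% (lower) of all genes. In OE-BECs 0 of 6 passed, beside 8.02% and 5.27%, and in OE-LECs 0 of 6, beside 2.77% and 2.09%. So few genes can hardly be set apart from these shares.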
